A study of Mus musculus with 10 samples.

Results

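The genes described here are 10 of the 27178 genes counted in sorted cells of the embryonic mouse cortex. They were chosen by function and found by their Entrez gene identifiers. Reln encodes the secreted ligand Reelin, Lrp8 and Vldlr encode its receptors, and Dab1 encodes the adaptor inside the receiving cell. The other 6, Trp73, Lhx1, Lhx5, Calb2, Nhlh2 and Ndnf, are used as markers of Cajal-Retzius cells. Of the 10, 9 passed the filter on low counts and were tested. Lhx1, with 2 to 12 counts in a library, did not pass it.

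Reelin is a large extracellular protein that guides newborn neurons to their layers. In the embryonic cortex it comes mainly from Cajal-Retzius cells, early-born neurons of the marginal zone that arise in the cortical hem and other borders of the cortical sheet. Migrating neurons bind it through Lrp8 and Vldlr, Src-family kinases then phosphorylate Dab1, and relays through Crk and Crkl to Rap1 and N-cadherin, and through PI3 kinase to Akt, act on adhesion and the cytoskeleton. Later, GABAergic interneurons of the cortex also make Reelin.

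Transcripts were counted by bulk RNA-seq in 5 groups of 2 libraries, from GFP+ cells purified by FACS out of dissociated cortex. Embryos had been electroporated in utero, which carries plasmids from the lateral ventricle into the progenitors that line it. The tests asked what loss of Ccn1, or a gain of CCN1 or GPC4, did to the 10 genes. Ccn1 encodes a secreted matrix protein and Gpc4 a glypican, a membrane-bound heparan sulfate proteoglycan.

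At E17.5, CcKO cells came from C57BL/6 embryos of genotype Nestin-Cre, Ccn1 fl/fl, and WT cells from wild-type C57BL/6 embryos. Both had received the control plasmid PB-Ctrl at E14.5. At E15.5, PB-CCN1, PB-GPC4 and PB-Ctrl cells came from wild-type ICR embryos that received the plasmid of that name at E13.5. Every group was given the PiggyBac transposase plasmid at 3 µg/µl, which inserts the cargo into the genome, with the PiggyBac construct at 1.5 µg/µl. The Nestin promoter drives Cre in neural progenitors, so in CcKO the unsorted neighbours of the GFP+ cells could carry the deletion too. Whether WT embryos carried the Cre is not given in the sources used here. Strain, age and day of electroporation differ together between the experiments, and their effects cannot be told apart.

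Total counts were between 22505945 and 30825498 per library, so 3 counts, the limit that a count of 0 allows, correspond to 0.0973 to 0.133 CPM (counting error only). Levels are given as CPM after TMM scaling. The targeted genes followed the labels. Ccn1 stood at 0.669 and 3.12 CPM in CcKO and at 17.7 and 12.1 CPM in WT. It stood at 7099 and 7004 CPM in PB-CCN1, at 36.2 and 29.9 CPM in PB-GPC4 and at 50.5 and 57.4 CPM in PB-Ctrl. Ccn1 was thus also lower in PB-GPC4 than in PB-Ctrl (log2 fold change -0.71, SE 0.12, edgeR adjusted p = 0.000488). Gpc4 stood at 5118 and 5004 CPM in PB-GPC4 and between 43.6 and 73.7 CPM in the 8 other libraries. Whether the libraries of a group came from separate embryos is not in the labels, and the p-values therefore reflect only how far these libraries vary, which may be technical.

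Start regions of Reln and Trp73 are shown because these members rose with the GPC4 plasmid. The windows run from 250 bases before to 50 bases after an annotated start and come from RefSeq on build GRCm38.p6, which held 12 windows for 7 of the 10 genes. Capitals mark the GC box, GGGCGG on either strand, the site that Sp-family factors bind. The 3 windows printed lie on the minus strand and are written 5′ to 3′.
Reln, chr5:22344656-22344955: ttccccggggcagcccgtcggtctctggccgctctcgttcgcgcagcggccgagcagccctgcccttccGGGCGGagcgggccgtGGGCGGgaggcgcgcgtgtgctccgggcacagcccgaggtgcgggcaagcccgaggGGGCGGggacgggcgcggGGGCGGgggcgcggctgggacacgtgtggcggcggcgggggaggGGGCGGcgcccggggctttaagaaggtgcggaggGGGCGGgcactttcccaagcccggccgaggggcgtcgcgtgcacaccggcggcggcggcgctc
Trp73, upstream start, chr4:154139826-154140125: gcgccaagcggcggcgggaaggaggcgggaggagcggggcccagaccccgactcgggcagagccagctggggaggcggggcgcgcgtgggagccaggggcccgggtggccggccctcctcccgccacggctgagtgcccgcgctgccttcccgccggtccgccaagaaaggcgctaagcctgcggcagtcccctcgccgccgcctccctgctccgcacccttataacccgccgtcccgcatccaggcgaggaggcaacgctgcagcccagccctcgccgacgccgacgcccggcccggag
Trp73, internal start, chr4:154097124-154097423: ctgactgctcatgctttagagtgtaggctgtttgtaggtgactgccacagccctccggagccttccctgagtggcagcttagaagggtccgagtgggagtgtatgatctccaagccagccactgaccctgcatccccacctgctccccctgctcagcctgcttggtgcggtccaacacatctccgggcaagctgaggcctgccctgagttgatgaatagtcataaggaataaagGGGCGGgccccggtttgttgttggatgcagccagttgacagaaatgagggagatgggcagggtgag

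The Reln window was 80.7% G and C and held 6 GC boxes. The upstream Trp73 window was 77.7% G and C with 0 GC boxes, and the internal one 57.7% G and C with 1. At least 1 GC box was found in 35.7% of the 32851 RefSeq windows of the same length. Both strands were also searched for the E-box CANNTG, which reads alike on both and was found in 72.3% of windows, and for the T-box half-site TCACACC, found in 4.0%. Neither contains the GC box or the other. Reln held 1 E-box, the Trp73 windows 1 and 2, and none of the 3 windows held the T-box half-site. These matches describe letters, not sites in use. The counts join transcripts from both Trp73 starts.

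Per gene length, the receptors and the adaptor were the prominent members and most Cajal-Retzius markers were scarce. Group means of the authors' FPKM (CPM per kilobase of gene) ran from 64.7 to 81.4 for Lrp8 (Entrez 16975, chr4:107802200-107876840). They ran from 48.4 to 65.0 FPKM for Dab1 (Entrez 13131, chr4:103619500-104744844) and from 5.77 to 6.8 FPKM for Vldlr (Entrez 22359, chr19:27216480-27254231). Of the 2 receptors, Lrp8 thus had the higher level in every library, at 64.6 to 82.7 FPKM against 5.43 to 6.83 FPKM for Vldlr. Reln (Entrez 19699, chr5:21884454-22344705) had group means between 1.62 and 4.4 FPKM, below all 3.

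Of the markers, Lhx1 was near the counting floor, as was Lhx5 in WT replicate 2 and PB-GPC4 replicate 1. Nhlh2 (Entrez 18072, chr3:102010111-102015492), a basic helix-loop-helix factor, had group means of 1.19 to 4.98 FPKM. Calb2 (Entrez 12308, chr8:110142526-110168212), which encodes the calcium-binding protein calretinin, had 0.305 to 2.26 FPKM. Ndnf (Entrez 68169, chr6:65671611-65712323), a secreted neurotrophic factor, had 0.13 to 0.466 FPKM. Trp73 (Entrez 22062, chr4:154056249-154139875) encodes p73, a p53-family factor of Cajal-Retzius cells, and had 0.108 to 0.341 FPKM. The LIM homeobox genes Lhx5 (Entrez 16873, chr5:120431886-120441457) and Lhx1 (Entrez 16869, chr11:84517975-84525534) had 0.111 to 0.357 and 0.0288 to 0.105 FPKM.

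The label of Cajal-Retzius cells was checked against their defining transcription factors. In single libraries, Trp73 had 14 to 60 counts, Lhx5 had 2 to 30 and Lhx1 had 2 to 12. Of 8 further genes used as such markers, Ebf2 was between 0 and 0.492 CPM, Barhl2 between 0 and 0.29 CPM and Eya2 between 0.079 and 0.722 CPM. The more abundant ones, Tbr1 at 276 to 337 CPM and Nhlh1 at 14.1 to 78.9 CPM, are also known from young glutamatergic neurons. Ebf3 had means of 3.54 CPM in WT and 6.22 CPM in PB-Ctrl, and Cacna2d2 of 7.7 and 3.74 CPM. Cxcr4 had a mean of 4.42 CPM in PB-Ctrl. The member Nhlh2 had group means of 3.93 to 16.9 CPM. Trp73, Lhx5, Lhx1, Ebf2, Barhl2 and Eya2 were therefore low in every group, other markers were less so, and Reln was at 17.4 to 61.4 CPM. Which cells carried the Reln transcripts was not measured. In bulk samples, fewer cells of a type and less RNA per cell cannot be told apart.

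**Figure D1:**
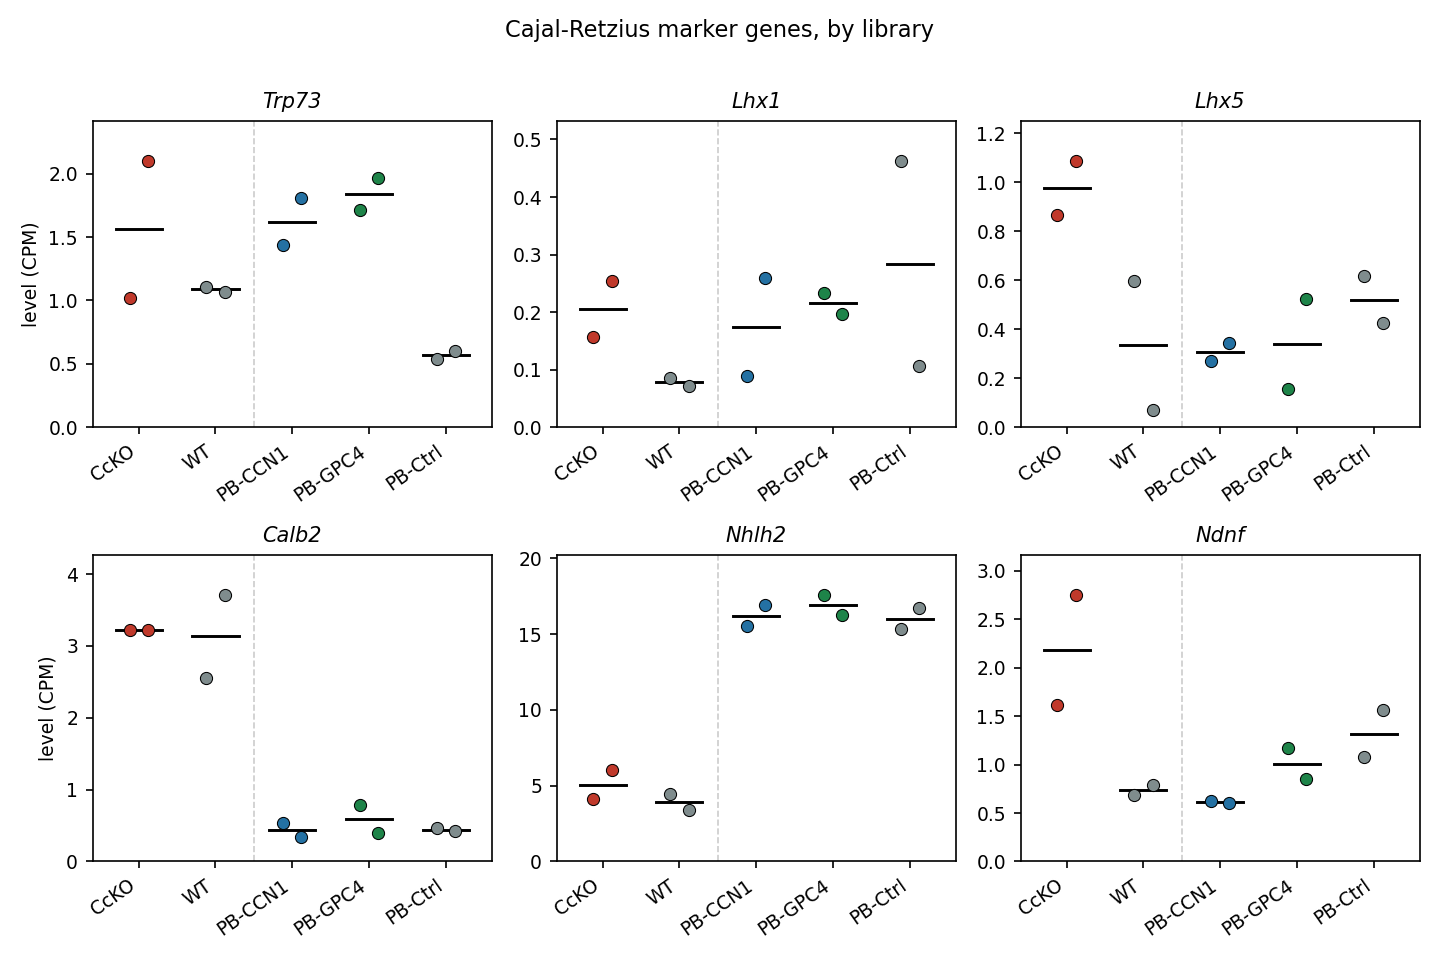
Level in CPM of the 6 Cajal-Retzius marker genes in each library (points) with the group mean (bar), for CcKO and WT at E17.5 and PB-CCN1, PB-GPC4 and PB-Ctrl at E15.5. Each panel has its own axis from 0: Calb2 was higher and Nhlh2 lower in both E17.5 groups than in all 3 E15.5 groups, and Trp73, Lhx1, Lhx5 and Ndnf stayed under 3 CPM.

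Loss of Ccn1 was compared with WT at E17.5. Reln was the member with the clearest rise in CcKO, and the adaptor Dab1, the receptor Lrp8 and the marker Ndnf also rose. Of the 9 tested, 4 rose and 0 fell, against 17.4% of all tested genes called higher, 12.9% called lower and 30.3% called in either direction. The median log2 fold change of the 9 was 0.38, and that of all tested genes was 0.02. Neither CcKO library overlapped WT for 6 of the 9, all higher in CcKO, against 32.7% of all tested genes higher and 28.6% lower.

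Reln stood at 41.6 and 61.4 CPM in CcKO, against 17.4 and 20.2 CPM in WT. Both CcKO libraries were above both WT libraries, and the 2 CcKO libraries differed from each other by more than the WT libraries did. In counts these were 1058 and 1694 in CcKO and 407 and 565 in WT. The log2 fold change was 1.46 (SE 0.13, edgeR adjusted p = 9.34e-10), a 2.74-fold rise. Reln passed under all 21 alternatives, with log2 fold changes between 1.00 and 1.71.

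Long genes as a class were higher in CcKO, and this touched the pathway members in particular. Length here is the one used for FPKM, not the span of the gene on the chromosome. Among all tested genes, the median log2 fold change was -0.28 in the 1538 shortest genes, up to 994 bases, and 0.33 in the 1537 longest, from 6214 bases. For the 221 genes between 10000 and 14000 bases, the class of Reln at 11702 bases, it was 0.46. With a smooth trend in length removed from every library, Reln still rose in CcKO, by 1.00 on the log2 scale (SE 0.14, edgeR adjusted p = 4.46e-06, with 6.69e-44 to 0.00133 over all alternatives). The source of the length trend was not tested.

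**Figure D2:**
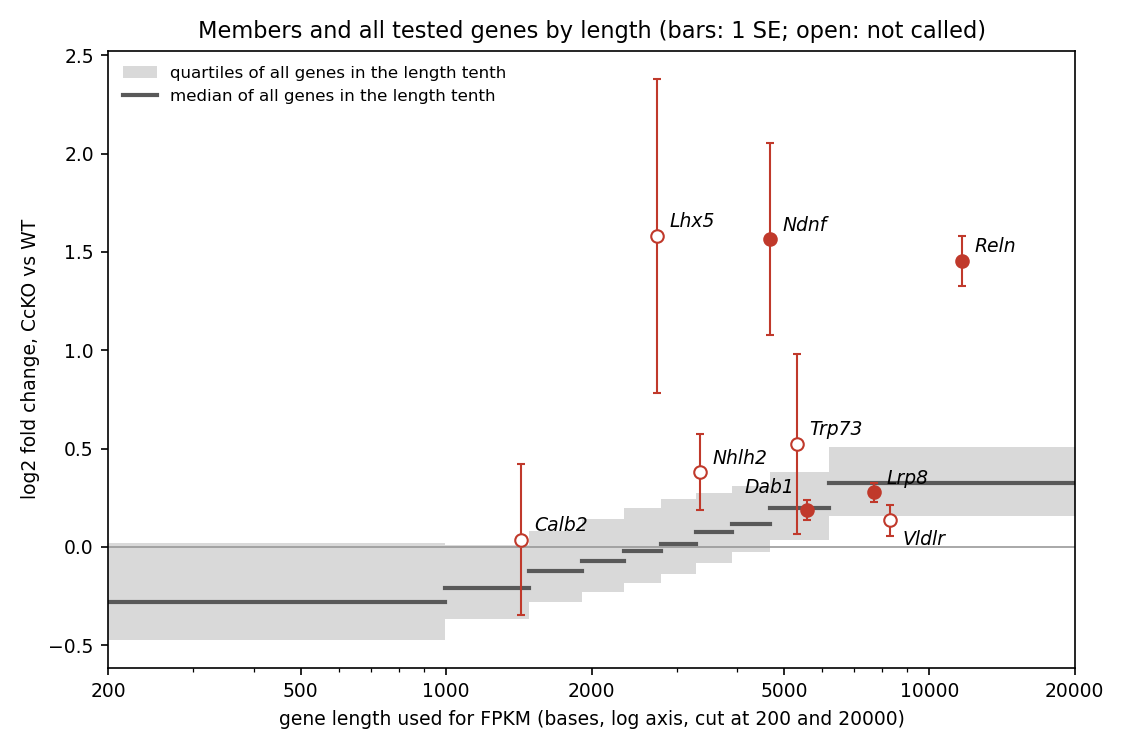
Log2 fold change of CcKO over WT (vertical axis) against the gene length used for FPKM in bases (horizontal log axis) for the 9 members tested, with bars of 1 SE, filled points for members called and open points for those not called. Grey steps give the median and quartiles of all tested genes in each of 10 length classes: Dab1 and Lrp8 lay inside the quartiles of their length class, Vldlr just below them, and Reln, Ndnf and the uncalled Nhlh2, Lhx5, Trp73 and Calb2 above them.

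The receptors rose little or not at all. Lrp8 stood at 624 and 565 CPM in CcKO, against 490.0 and 490.7 CPM in WT. Its log2 fold change was 0.28 (SE 0.05, edgeR adjusted p = 4.46e-05). Both CcKO libraries were above WT. Vldlr stood at 55.9 and 57.01 CPM in CcKO and 52.8 and 50.1 CPM in WT, without overlap, and did not pass (log2 fold change 0.13, SE 0.08, edgeR adjusted p = 0.205). With the length trend removed, the log2 fold change of Lrp8 was -0.04 (edgeR adjusted p = 0.661, with 4.75e-08 to 0.661 over all alternatives). That of Vldlr was -0.20 (edgeR adjusted p = 0.0659, with 0.0659 to 0.533 over all alternatives). The call of Lrp8 in CcKO was thus lost once length was accounted for.

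The adaptor followed the same pattern. Dab1 stood at 359.6 and 365 CPM in CcKO, against 333 and 304 CPM in WT, with the groups apart. Its log2 fold change was 0.19 (SE 0.05, edgeR adjusted p = 0.00705). It was -0.02 with the length trend removed (adjusted p = 0.863), and the call was also lost without WT replicate 2 (0.146) and with the E17.5 experiment fitted on its own (0.0631). Over all alternatives its edgeR, DESeq2 or limma adjusted p ran from 0.0018 to 0.863.

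Of the Cajal-Retzius markers, 1 of the 5 tested rose in CcKO, a share near the 17.4% of all tested genes called higher. Ndnf stood at 1.61 and 2.75 CPM in CcKO, against 0.683 and 0.785 CPM in WT, without overlap, on 41 and 76 counts in CcKO and 16 and 22 in WT. Its log2 fold change was 1.57 (SE 0.49, edgeR adjusted p = 0.0153), and 1.41 with the length trend removed (edgeR adjusted p = 0.0448). The call was lost without CcKO replicate 2 (adjusted p = 0.194) and without either WT library (replicate 1, 0.0766; replicate 2, 0.0685; with 0.00571 to 0.194 over all alternatives).

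The 4 other markers tested did not pass in CcKO. Trp73 stood at 1.02 and 2.10 CPM in CcKO and 1.11 and 1.07 CPM in WT, so the CcKO libraries lay on both sides of WT (log2 fold change 0.52, edgeR adjusted p = 0.431). Lhx5 stood at 0.866 and 1.09 CPM in CcKO and 0.597 and 0.071 CPM in WT (log2 fold change 1.58, SE 0.80, edgeR adjusted p = 0.14). It would be called without WT replicate 1 (adjusted p = 0.0333, with 0.0333 to 0.661 over all alternatives). Calb2 was alike at 3.23 and 3.22 CPM in CcKO and 2.56 and 3.71 CPM in WT (log2 fold change 0.04, adjusted p = 0.96). Nhlh2 stood at 4.09 and 6.05 CPM in CcKO and 4.44 and 3.43 CPM in WT (log2 fold change 0.38, adjusted p = 0.139), and it was called without CcKO replicate 1 (adjusted p = 0.0205). Lhx1 had 4 and 7 counts in CcKO and 2 and 2 counts in WT.

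**Figure D3:**
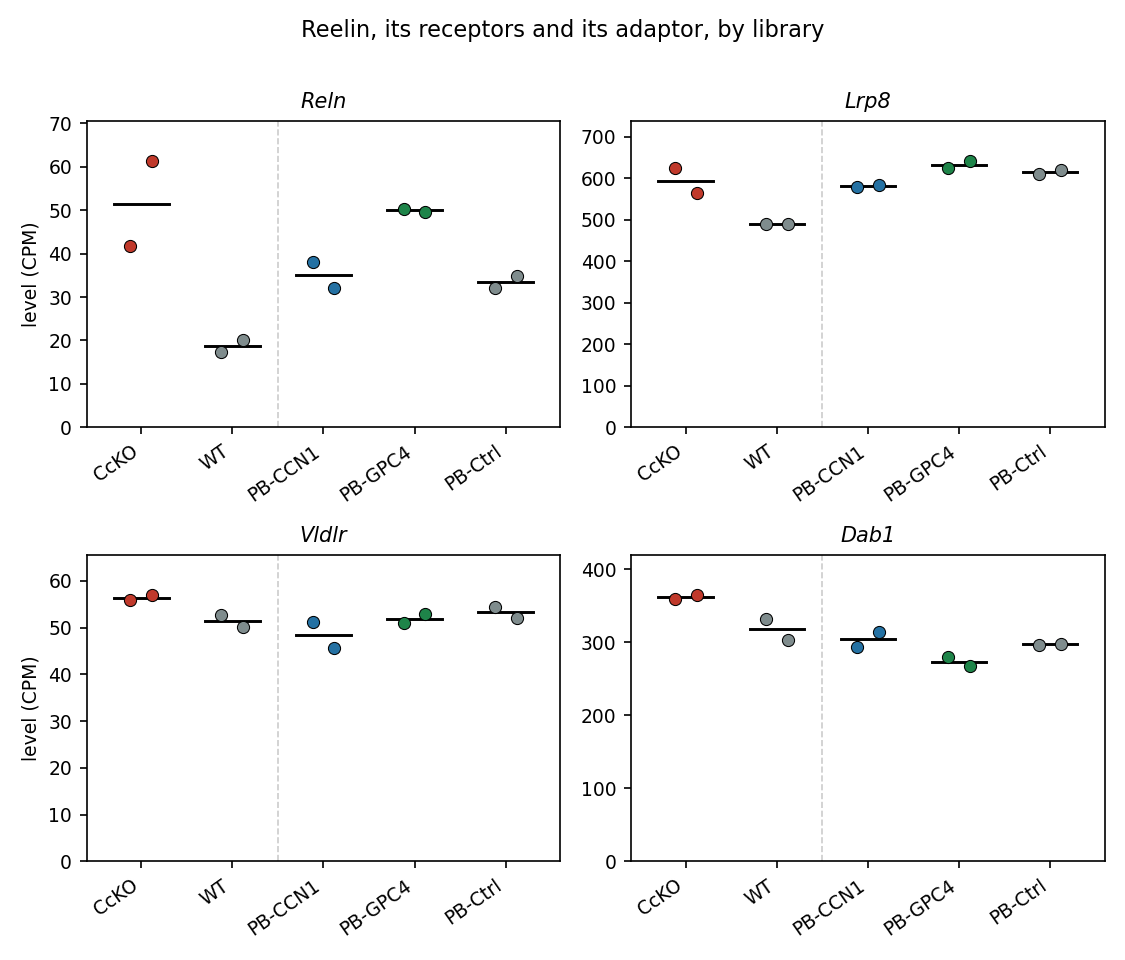
Level in CPM of Reln, its receptors Lrp8 and Vldlr and its adaptor Dab1 in each library (points) with the group mean (bar), each panel with its own axis from 0. Reln in CcKO and in PB-GPC4 stood above WT and PB-Ctrl, and group means ran from 490.3 to 633 CPM for Lrp8, from 274 to 362 CPM for Dab1 and from 48.5 to 56.4 CPM for Vldlr.

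Of 28 genes that act downstream of Reelin or encode its proteases, all tested, 10 rose, 4 fell and 14 did not pass in CcKO. Of all tested genes 17.4% were called higher and 12.9% lower, so the share that fell was near the background. The 28 had a median log2 fold change of 0.09 against 0.02 for all tested genes. Cdh2, which encodes N-cadherin, stood at 447 and 489 CPM in CcKO and 351 and 316 CPM in WT (log2 fold change 0.49, edgeR adjusted p = 5.26e-08). Crkl, an adaptor that binds phosphorylated Dab1, stood at 121 and 134 CPM in CcKO and 88.9 and 84.6 CPM in WT (log2 fold change 0.56, edgeR adjusted p = 5.42e-08). Both calls held with the length trend removed, at log2 fold changes of 0.34 and 0.46.

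For Rapgef1 and Gsk3b the calls depended on length. Rapgef1, the exchange factor for Rap1 that Crk proteins recruit, rose by 0.37 on the log2 scale (edgeR adjusted p = 4.73e-06). Gsk3b, a kinase inhibited by Akt, rose by 0.34 (edgeR adjusted p = 2.57e-05). Without the length trend their log2 fold changes were 0.12 and 0.01 and neither passed (edgeR adjusted p = 0.146 and 0.957). With that trend removed, 6 of the 28 rose and 4 fell, and 2760 of the 15371 tested genes were called in either direction.

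Of the 8 further Cajal-Retzius genes, 6 were tested, 1 rose and 0 fell in CcKO, a share near the 17.4% of all tested genes called higher. That gene was Tbr1, a T-box factor of early-born neurons, at 324 and 323 CPM in CcKO and 292 and 276 CPM in WT (log2 fold change 0.19, edgeR adjusted p = 0.00391). It did not pass without the length trend (log2 fold change 0.08, edgeR adjusted p = 0.271).

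Summed interneuron and radial glia markers were higher beside Reln in CcKO, and their part in its rise was not tested. The 16 cortical interneuron genes summed to 123 and 157 CPM in CcKO and 103 and 117 CPM in WT. Of them 3 rose, 0 fell and 13 did not pass, a share near the 17.4% of all tested genes called higher. Erbb4, the neuregulin receptor, was at 1.61 and 3.77 CPM in CcKO and 0.683 and 0.428 CPM in WT (log2 fold change 2.29, edgeR adjusted p = 0.000438). Adarb2, an RNA-editing family member, was at 1.97 and 2.21 CPM in CcKO and 0.939 and 0.143 CPM in WT (log2 fold change 1.98, edgeR adjusted p = 0.0178). As for Reln, the interneuron sum was higher in CcKO replicate 2 than in CcKO replicate 1. The radial glia, intermediate progenitor, newborn neuron, subplate and microglia sums had the same order, so it was not particular to interneuron genes. The cortical hem, oligodendrocyte precursor and meningeal sums had the opposite order.

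Of all tested genes 17.4% were called higher and 12.9% lower in CcKO. Of the 14 radial glia genes, 8 rose and 0 fell in CcKO, led by the matrix protein gene Tnc (log2 fold change 0.82, edgeR adjusted p = 7.14e-11). Their sums were 2110 and 2202 CPM in CcKO and 1702 and 1605 CPM in WT. Of 9 cortical hem and choroid plexus genes, 3 were tested and 1 rose, the secreted ligand gene Wnt5a, at 2.76 and 2.32 CPM in CcKO and 0.939 and 0.785 CPM in WT. Ttr, the defining choroid plexus gene, was between 0 and 0.157 CPM. The newborn neuron list had 4 genes that rose and 4 that fell of 12, and the intermediate progenitor list 1 that rose and 2 that fell of 8. With the length trend removed, these were 0 and 3 newborn neuron genes and 2 and 0 intermediate progenitor genes, and 2760 of the 15371 tested genes were called.

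Markers of further cell types that cortical tissue holds were summed in the same way. Of all tested genes 17.4% were called higher and 12.9% lower in CcKO. The 8 endothelial and pericyte genes summed to 15.2 and 15.5 CPM in CcKO and 7.94 and 11.4 CPM in WT. None passed by edgeR or DESeq2, 4 had an unadjusted edgeR p under 0.05, and 3 or 2 rose by limma with a pseudocount of 1 or 0.1. The 8 microglia genes summed to 4.68 and 9.45 CPM in CcKO and 4.35 and 6.17 CPM in WT, with 1 of 7 tested called higher by edgeR (P2ry12) and 0 by DESeq2, by limma or with the length trend removed. Of 3 erythroid genes tested 2 rose, the near-identical Hba-a1 and Hba-a2, and sums were 12.8 and 12.9 CPM in CcKO and 4.78 and 3.57 CPM in WT. Subplate genes summed to 100.9 and 112 CPM in CcKO and 94.1 and 98.6 CPM in WT. Oligodendrocyte precursor genes summed to 83.8 and 80.5 CPM in CcKO and 71.6 and 84.2 CPM in WT, and meningeal genes to 42.7 and 36.4 CPM in CcKO and 42.1 and 42.7 CPM in WT. The subplate list had 2 of 6 tested genes called higher and the oligodendrocyte precursor list 1 of 5, and both had 0 by DESeq2 or limma or with the length trend removed. Of 6 meningeal genes tested, 0 passed by edgeR, DESeq2 or limma, and 0 had an unadjusted p under 0.05.

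**Figure D4:**
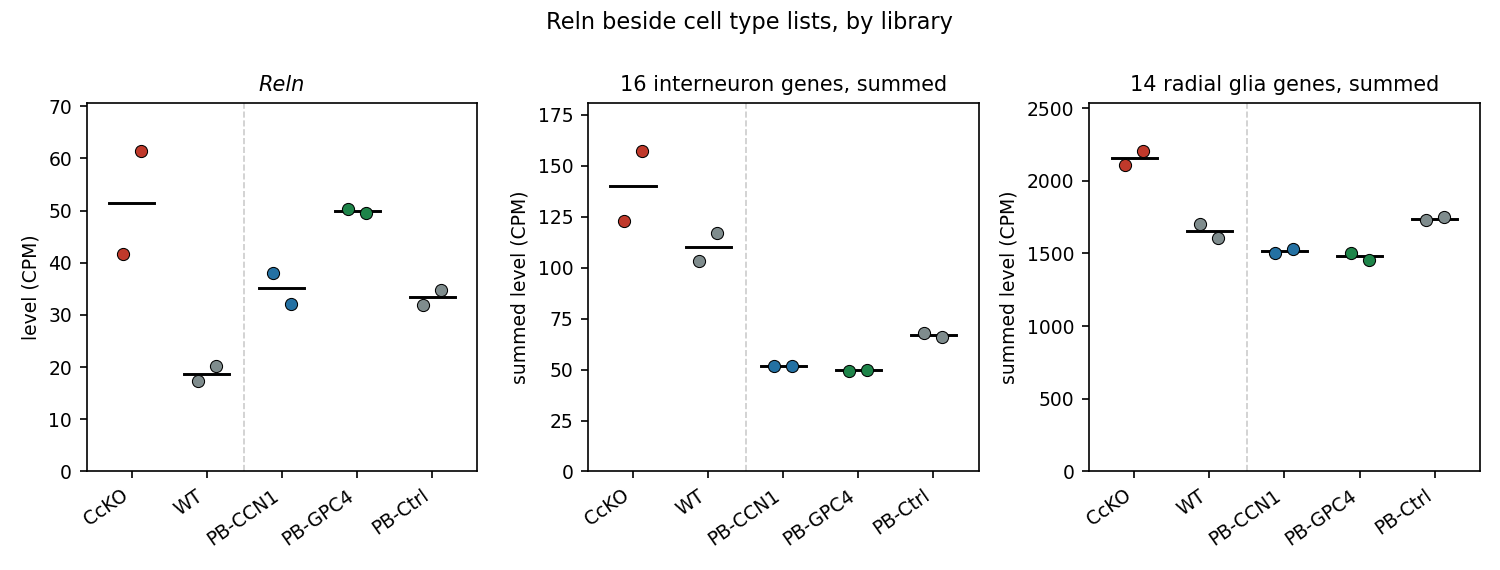
Level of Reln and summed levels of 16 interneuron and 14 radial glia genes, all in CPM, in each library (points) with the group mean (bar). Reln and both sums were higher in CcKO than in WT, whereas in PB-GPC4 Reln was higher and both sums were lower than in PB-Ctrl. Both sums were also lower in PB-CCN1, where Reln overlapped PB-Ctrl.

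The plasmids were compared with PB-Ctrl at E15.5. Reln and Trp73 rose in PB-GPC4, and no member passed in PB-CCN1. In PB-GPC4, 2 of the 9 rose and 0 fell, against 3.19% of all tested genes called higher, 3.17% called lower and 6.36% called in either direction. In PB-CCN1, 0 of 9 passed by edgeR, DESeq2 or limma, against 0.442% of all tested genes called higher, 0.748% called lower and 1.19% called in either direction by edgeR, and 2 had an unadjusted edgeR p under 0.05. Both PB-GPC4 libraries were above PB-Ctrl for 3 of the 9 and below for 1, against 26.7% and 27.0% of all tested genes. The median log2 fold change of the 9 was 0.04 in PB-GPC4 and -0.01 in PB-CCN1, against 0.00 and 0.01 for all tested genes. Both comparisons share the 2 PB-Ctrl libraries, so their values are given side by side only.

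Reln stood at 38.1 and 32.1 CPM in PB-CCN1, at 50.3 and 49.5 CPM in PB-GPC4 and at 32.0 and 34.8 CPM in PB-Ctrl. Both PB-GPC4 libraries were above all others at E15.5, and the PB-CCN1 and PB-Ctrl libraries overlapped. The log2 fold change was 0.58 in PB-GPC4 (SE 0.12, edgeR adjusted p = 0.00334), a 1.49-fold rise, and 0.07 in PB-CCN1 (SE 0.13, edgeR adjusted p = 0.89). With the length trend removed, the value in PB-GPC4 was 0.64 (edgeR adjusted p = 0.00244). The call in PB-GPC4 was lost without PB-Ctrl replicate 1 (adjusted p = 0.0817) and by limma on log2 of FPKM plus 1 or plus 0.1 (adjusted p = 0.17 and 0.178), and over all alternatives the adjusted p ran from 4.34e-08 to 0.178.

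Trp73 was low but apart from its control in both plasmid groups. It stood at 1.43 and 1.81 CPM in PB-CCN1, at 1.72 and 1.97 CPM in PB-GPC4 and at 0.54 and 0.603 CPM in PB-Ctrl, on 74, 104 and 31 counts per group. The log2 fold change was 1.68 in PB-GPC4 (SE 0.48, edgeR adjusted p = 0.0343) and 1.50 in PB-CCN1 (SE 0.49, edgeR adjusted p = 0.177). The PB-GPC4 call was lost whenever any of the 4 libraries it compares was left out (PB-GPC4 replicate 1 or 2, or PB-Ctrl replicate 1 or 2; adjusted p = 0.103, 0.171, 0.196 and 0.174). It was also lost by limma (adjusted p = 0.149 and 0.118), and over all alternatives the adjusted p ran from 0.00645 to 0.196. DESeq2 gave no adjusted p for it. An antisense gene overlaps Trp73, as others overlap Reln and Lrp8, and since the strand setting of the counting is not given in the sources used here, their reads cannot be told apart.

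The receptors and the adaptor did not pass with either plasmid. Lrp8 stood at 579 and 584 CPM in PB-CCN1, at 624 and 642 CPM in PB-GPC4 and at 609.9 and 620.3 CPM in PB-Ctrl. Its log2 fold changes were -0.08 in PB-CCN1 (SE 0.05, edgeR adjusted p = 0.532) and 0.04 in PB-GPC4 (SE 0.05, edgeR adjusted p = 0.688). Vldlr stood at 51.3 and 45.7 CPM in PB-CCN1, at 51.0 and 52.8 CPM in PB-GPC4 and at 54.4 and 52.1 CPM in PB-Ctrl. Its log2 fold changes were -0.14 (SE 0.08, edgeR adjusted p = 0.533) in PB-CCN1 and -0.03 (SE 0.08, edgeR adjusted p = 0.861) in PB-GPC4. All 4 values were within 0.14 on the log2 scale of no difference.

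Dab1 stood at 294 and 315 CPM in PB-CCN1, at 279.6 and 268 CPM in PB-GPC4 and at 297 and 298 CPM in PB-Ctrl. The PB-GPC4 libraries lay below both controls. The log2 fold change there was -0.12 (SE 0.05, edgeR adjusted p = 0.188), and the call was made under 1 of the alternatives, with each experiment fitted on its own (adjusted p = 0.0314). In PB-CCN1 the log2 fold change was 0.03 (SE 0.05, edgeR adjusted p = 0.876).

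The other markers did not pass with either plasmid. Ndnf stood at 0.627 and 0.603 CPM in PB-CCN1, at 1.17 and 0.853 CPM in PB-GPC4 and at 1.08 and 1.56 CPM in PB-Ctrl. The PB-CCN1 libraries were below the controls on 28 counts against 72 (log2 fold change -1.10, edgeR adjusted p = 0.401). Nhlh2, at 15.4 to 17.6 CPM in all 6 libraries at E15.5, had log2 fold changes of 0.02 in PB-CCN1 and 0.08 in PB-GPC4. Lhx5 was between 0.156 and 0.617 CPM, Calb2 between 0.345 and 0.78 CPM and Lhx1 between 0.09 and 0.463 CPM in these 6 libraries. For 1 of the 9 members the PB-CCN1 libraries were both above PB-Ctrl and for 4 both below, against 23.5% and 21.9% of all tested genes.

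Of the 28 relay and protease genes, 1 rose and 0 fell in PB-GPC4, a share near the 3.19% of all tested genes called higher. By DESeq2 2 rose, by limma 0, and with the length trend removed 3, where 1064 of the 15371 tested genes were called in either direction. The gene called as fitted was Cdh2, at 478 and 484 CPM in PB-GPC4 and 427 and 421 CPM in PB-Ctrl (log2 fold change 0.18, edgeR adjusted p = 0.0392). In PB-CCN1, 0 of the 28 passed by edgeR or limma, 1 by DESeq2, and 4 had an unadjusted edgeR p under 0.05. The 2 smallest p-values there belonged to Cdk5r2 and Cdk5r1, activators of the migration kinase Cdk5, with log2 fold changes of 0.45 and 0.16 (edgeR adjusted p = 0.0831 and 0.0861). Of the 6 further Cajal-Retzius genes tested, 0 passed with either plasmid by edgeR, DESeq2 or limma. At an unadjusted edgeR p under 0.05 there were 2 in PB-CCN1 and 1 in PB-GPC4, all lower.

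Interneuron and radial glia markers were lower in PB-GPC4, where Reln was higher. Their sums were also lower in PB-CCN1, where Reln did not pass. The interneuron genes summed to 49.52 and 49.99 CPM in PB-GPC4 and 67.9 and 66.0 CPM in PB-Ctrl. Of the 16, 4 fell and 0 rose, among them Sst, Lhx6 and Dlx2, with log2 fold changes of -1.94, -0.86 and -0.88 (edgeR adjusted p = 0.00459, 0.0136 and 0.0291). Of the 14 radial glia genes, 8 fell and 0 rose, with sums of 1506 and 1452 CPM in PB-GPC4 and 1730.0 and 1748 CPM in PB-Ctrl, and of 12 newborn neuron genes 5 rose and 0 fell. Of all tested genes 3.19% were called higher and 3.17% lower. By limma, 1 interneuron gene and 6 radial glia genes fell and 1 newborn neuron gene rose. Unc5d, a netrin receptor of migrating neurons, rose by 0.28 and Dcx, a microtubule protein of migrating neurons, by 0.19 on the log2 scale (edgeR adjusted p = 0.000518 and 0.0128).

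The remaining lists were small or split in PB-GPC4. The intermediate progenitor list had 2 of 8 genes higher, and the subplate list 1 higher and 2 lower of 6 tested. Of all tested genes 3.19% were called higher and 3.17% lower. The cortical hem, endothelial, meningeal, microglia, oligodendrocyte precursor and erythroid lists had 0 genes called by edgeR, DESeq2 or limma. At an unadjusted edgeR p under 0.05, these 6 lists held 1 higher microglia gene, 1 lower oligodendrocyte precursor gene, and 1 higher and 1 lower erythroid gene. Microglia sums were 8.66 and 11.1 CPM in PB-GPC4 and 5.52 and 5.95 CPM in PB-Ctrl. The part of any of these cells in the rise of Reln was not tested. In PB-CCN1, where Reln did not pass, 3 of the 14 radial glia genes fell and 0 rose, against 0.748% of all tested genes called lower. None of the 16 interneuron genes passed there by edgeR, DESeq2 or limma, and 6 had an unadjusted edgeR p under 0.05, all lower. Interneuron sums in PB-CCN1 were 52.0 and 51.7 CPM and radial glia sums 1504 and 1531 CPM, all below PB-Ctrl. Between PB-CCN1 and PB-GPC4, 0 interneuron genes were called. Of the radial glia genes 2 were called higher in PB-CCN1, against 1.4% of all tested genes.

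**Figure D5:**
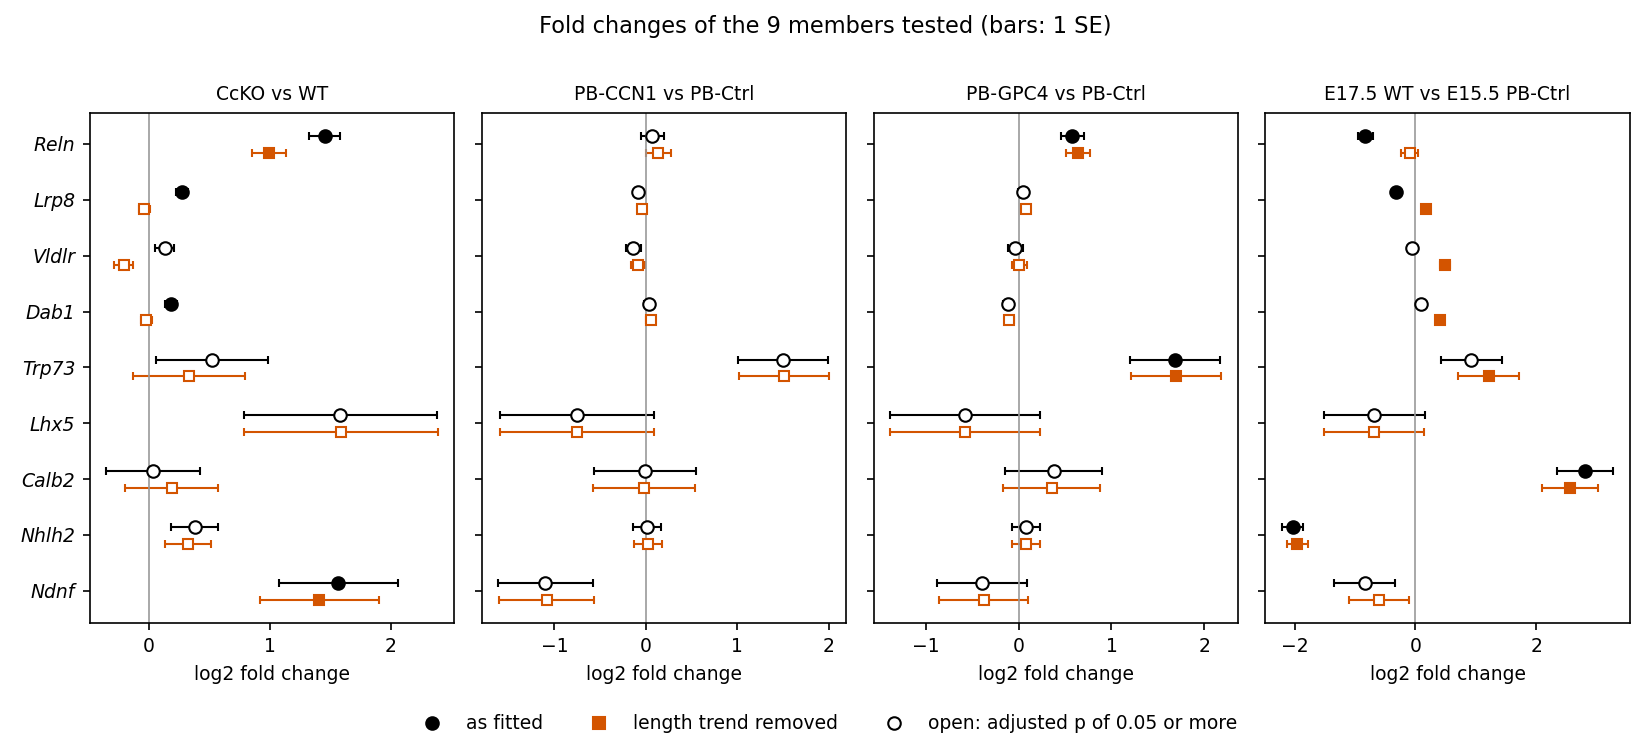
Log2 fold change (horizontal axis) of the 9 members tested in 4 comparisons, as fitted (black circles) and with a smooth trend in the gene length used for FPKM removed (orange squares), with bars of 1 SE and open symbols at an adjusted p of 0.05 or more. Reln was called both ways in CcKO and in PB-GPC4, and Lrp8 and Dab1 in CcKO, and Reln between the controls, were called only as fitted.

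PB-CCN1 was then set directly against PB-GPC4. Reln was lower in PB-CCN1 and was the 1 member of 9 that passed, against 0.755% of all tested genes called lower, 1.4% called higher and 2.15% called in either direction. Both PB-CCN1 libraries were above PB-GPC4 for 1 of the 9 (Dab1) and below for 3 (Lrp8, Reln and Ndnf), against 23.6% and 23.3% of all tested genes. With 38.1 and 32.1 CPM in PB-CCN1 and 50.3 and 49.5 CPM in PB-GPC4, the log2 fold change was -0.51 (SE 0.12, edgeR adjusted p = 0.0228). It was -0.50 with the length trend removed (edgeR adjusted p = 0.0358). The call was lost without PB-CCN1 replicate 2, PB-GPC4 replicate 1 or PB-GPC4 replicate 2 (adjusted p = 0.275, 0.146 and 0.117) and by limma (0.288 and 0.297), with 8.59e-06 to 0.297 over all alternatives. Dab1 (log2 fold change 0.15, edgeR adjusted p = 0.14) and Lrp8 (-0.12, edgeR adjusted p = 0.196) did not pass, nor did Trp73 (-0.18, SE 0.44, edgeR adjusted p = 0.906).

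The knockout and overexpression effects of Ccn1 were compared by the difference between the CcKO to WT and the PB-CCN1 to PB-Ctrl fold changes, which share no library. Reln, Lrp8 and Ndnf differed, 3 of 9, against 13.7% of all tested genes with a positive difference, 9.78% with a negative one and 23.5% in either direction. For Reln the difference was 1.39 on the log2 scale (SE 0.18, edgeR adjusted p = 1.61e-06), and 0.86 with the length trend removed (edgeR adjusted p = 0.00272). For Ndnf, which was higher in CcKO and lower, without a call, in PB-CCN1, it was 2.66 (SE 0.71, edgeR adjusted p = 0.00682), and 2.50 with the trend removed (edgeR adjusted p = 0.0179). For Lrp8 it was 0.36 (SE 0.07, edgeR adjusted p = 0.000223), and 0.01 with the trend removed (edgeR adjusted p = 0.966, with 9.56e-07 to 0.966 over all alternatives). Age and strain differ between the 2 effects and cannot be told apart from the manipulation.

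The control groups placed the members in each experiment. E17.5 WT cells had more Calb2 and less Nhlh2, Lrp8 and Reln than E15.5 PB-Ctrl cells, so 1 of 9 rose and 3 fell. Of all tested genes, 26.4% were called higher, 28.6% lower and 54.9% either way. With the length trend removed, 5 rose and 1 fell, and 7363 of the 15371 tested genes were called in either direction. Both WT libraries were above PB-Ctrl for 3 of the 9 and below for 4, against 38.0% and 39.4% of all tested genes. Calb2 stood at 2.56 and 3.71 CPM in WT and 0.463 and 0.425 CPM in PB-Ctrl (log2 fold change 2.81, SE 0.46, edgeR adjusted p = 7.85e-06). Nhlh2 stood at 4.44 and 3.43 CPM in WT and 15.4 and 16.7 CPM in PB-Ctrl (log2 fold change -2.04, SE 0.18, edgeR adjusted p = 9.04e-11). Both held under all 20 alternatives.

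Calretinin also marks some interneurons, and of the 16 interneuron genes 12 rose and 1 fell in E17.5 WT, with sums of 103 and 117 CPM in WT and 67.9 and 66.0 CPM in PB-Ctrl. Of all tested genes 26.4% were called higher and 28.6% lower. Nhlh1, the close relative of Nhlh2, stood at 15.7 and 14.1 CPM in WT and 77.3 and 78.9 CPM in PB-Ctrl (log2 fold change -2.40, edgeR adjusted p = 4.35e-18). Of the 6 further Cajal-Retzius genes tested, Cacna2d2, a calcium channel subunit, rose and Nhlh1, Ebf3 and Tbr1 fell, Tbr1 only as fitted (log2 fold change 0.00 with the length trend removed, edgeR adjusted p = 0.992).

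The falls of Reln and Lrp8 between the controls depended on length. Reln stood at 17.4 and 20.2 CPM in WT and 32.0 and 34.8 CPM in PB-Ctrl (log2 fold change -0.83, SE 0.13, edgeR adjusted p = 3.88e-06). Its value was -0.09 with the length trend removed (edgeR adjusted p = 0.623, with 2.38e-14 to 0.623 over all alternatives). Lrp8 stood at 490.0 and 490.7 CPM in WT and 609.9 and 620.3 CPM in PB-Ctrl (log2 fold change -0.33, SE 0.05, edgeR adjusted p = 1.08e-06), and turned to 0.17 with the trend removed (edgeR adjusted p = 0.00278, with 5.91e-11 to 0.00278 over all alternatives). The 221 genes between 10000 and 14000 bases had a median of -0.69.

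Once that trend was removed, the receptors and adaptor were higher in E17.5 WT. Vldlr then had a log2 fold change of 0.49 and Dab1 of 0.41 (edgeR adjusted p = 5.85e-06 and 6.73e-08), against -0.05 and 0.10 as fitted (edgeR adjusted p = 0.613 and 0.118). Trp73 had a log2 fold change of 1.21 with the trend removed and 0.92 as fitted (edgeR adjusted p = 0.0488 and 0.123). Over all alternatives the adjusted p ran from 9.97e-07 to 0.951 for Vldlr, from 3.6e-09 to 0.67 for Dab1 and from 0.0488 to 0.278 for Trp73. Of the 28 relay and protease genes, 10 rose and 11 fell as fitted, and 15 rose and 5 fell with the trend removed. Of the 15371 tested genes, 8444 were called in either direction as fitted and 7363 with the trend removed.

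The order of the 5 groups differed between ligand and receptors. Reln was highest in CcKO and PB-GPC4, whose ranges overlapped at means of 51.5 and 49.9 CPM. PB-CCN1 and PB-Ctrl followed, overlapping at 35.1 and 33.4 CPM, and WT was lowest at 18.8 CPM with no overlap. Lrp8 was highest in PB-GPC4 at 633 CPM and lowest in WT at 490.3 CPM, with PB-Ctrl, CcKO and PB-CCN1 in between, each overlapping the next. Dab1 was highest in CcKO at 362 CPM and lowest in PB-GPC4 at 274 CPM. Vldlr spanned only 48.5 to 56.4 CPM, with all but CcKO overlapping a neighbour.

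Genes whose levels most resembled those of the pathway members were sought among 10380 genes, over the 10 libraries, with the mean of each experiment subtracted. For Reln the 3 most alike were Zfp652, Fam210a and Mars2 (Pearson's r of 0.99, 0.98 and 0.98). For Lrp8 they were Cog5, Plcb4 and Setd1b (0.98, 0.98 and 0.97), and for Vldlr Hira, Mcm6 and Kcnc2 (0.95, 0.93 and 0.91). For Dab1 they were Carnmt1, Zfp551 and Stard4 (0.97, 0.97 and 0.95). These are descriptions over libraries that share depth and groups, and without the subtraction r was below 0 for all 3 genes named for Dab1 and for Mcm6. Without it, Plcb4 ranked 2 for Lrp8 and Kcnc2 ranked 3 for Vldlr, while Zfp652 ranked 253 for Reln.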

How the data were processed

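Gene counts and FPKM were deposited by the authors for 10 libraries of GFP+ mouse cortical cells. Per the submitters' processing notes, bcl2fastq, Trimmomatic, HISAT2 and featureCounts were used with build mm10; their versions, the strand setting and the annotation release are not given in the sources used here. Of counts from 1 to 20, 73.3% were even, so a count may not be 1 fragment.

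Raw counts were tested with edgeR 4.0.16 in R 4.3.3: TMM scaling, filterByExpr, 5 group means and quasi-likelihood F-tests, Benjamini-Hochberg adjusted over 15371 genes at 0.05. DESeq2 1.42.0, limma 3.58.1 on log2 of the deposited FPKM plus 1 or 0.1, other scalings, a lowess trend in length (span 0.3) and left-out libraries were alternatives. The code was tested on simulated data. Genes outside the 10 were named by a rule: those with the smallest p in each list. Members and lists were chosen with earlier results of these data known. Correlations of same-numbered libraries lay between -0.016 and 0.018, so the numbers were not taken as pairs. Windows came from RefSeq, GRCm38.p6.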

Additional observations from a re-analysis of the deposited data

Results flagged for a closer look

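The effect of losing Ccn1 differed from that of adding CCN1 for 3 members, by the test of the difference between the log2 fold changes of CcKO over WT and PB-CCN1 over PB-Ctrl. The difference was 1.39 for Reln, 0.36 for Lrp8 and 2.66 for Ndnf (edgeR adjusted p = 1.61e-06, 0.000223 and 0.00682). For Lrp8 it was 0.01 with the length trend removed (edgeR adjusted p = 0.966). Over the alternatives the adjusted p ran from 4.99e-20 to 0.0126 for Reln, from 9.56e-07 to 0.966 for Lrp8 and from 0.00132 to 0.0456 for Ndnf.

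The effects of the 2 plasmids on Reln also differed, with a log2 fold change of -0.51 for PB-CCN1 over PB-GPC4 (edgeR adjusted p = 0.0228, with 8.59e-06 to 0.297 over the alternatives).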

How the results depend on the processing

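Of 1105 values and alternatives, 1032 kept their direction and side of the threshold. Of the 9 members, 4 were called in CcKO against WT, but 2 with the length trend removed, 2 with length and GC trends removed, and 2 to 5 when single libraries were left out. In PB-GPC4 against PB-Ctrl the count was 2, but 1 by DESeq2, 0 by limma with either pseudocount, and 0 to 2 without single libraries. In PB-CCN1 against PB-GPC4 it was 1, but 3 with each experiment fitted on its own, 0 by limma, and 0 to 2 without single libraries. In WT against PB-Ctrl it was 4, and 6 with the length trend removed (5 higher, 1 lower). The difference of the Ccn1 effects called 3, and 3 to 5 without single libraries. As fitted, 30.3% of all tested genes were called in CcKO against WT, 6.36% in PB-GPC4 against PB-Ctrl and 2.15% in PB-CCN1 against PB-GPC4. In WT against PB-Ctrl 54.9% were called, and 23.5% for the difference of the Ccn1 effects. With the replicate block the counts were 4, 0, 2, 1, 4 and 3 in the 6 comparisons, and no count of members moved. Halving the counts, an alternative chosen after seeing the data, changed no member's call. The cause of these changes was not tested.

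Directions reversed as follows. With the length trend removed, log2 fold changes in CcKO were -0.017 for Dab1, -0.204 for Vldlr and -0.035 for Lrp8, and with GC as well -0.031, -0.206 and -0.051. In WT against PB-Ctrl they were 0.49 for Vldlr and 0.17 for Lrp8, and 0.56 and 0.21 with GC. In PB-GPC4 Vldlr was 0.009. For the difference of the Ccn1 effects they were -0.07 for Dab1 and -0.11 for Vldlr, and with GC -0.083, -0.113 and, for Lrp8, -0.01. By limma Nhlh2 in PB-CCN1 was -0.011 and -0.013 with pseudocounts of 1 and 0.1. Without subtracting experiment means, r was -0.26 for Carnmt1, -0.03 for Zfp551, -0.41 for Stard4 and -0.15 for Mcm6.

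Leaving out single libraries gave ranges that crossed 0. In CcKO these were -0.20 to 0.33 for Calb2 and -0.11 to 0.95 for Trp73. In PB-CCN1 they were -0.36 to 0.28 for Calb2, -0.049 to 0.072 for Nhlh2, -0.064 to 0.189 for Reln and -0.016 to 0.078 for Dab1. In PB-GPC4 they were -0.058 to 0.002 for Vldlr, -1.70 to 0.015 for Lhx5 and -0.17 to 0.81 for Calb2. In PB-CCN1 against PB-GPC4 they were -0.83 to 0.16 for Calb2 and -0.76 to 0.95 for Lhx5. In WT against PB-Ctrl they were -2.79 to 0.20 for Lhx5 and -0.086 to 0.009 for Vldlr, and for the difference of the Ccn1 effects -0.24 to 0.38 for Calb2.

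Over all genes, CcKO against WT gave 4663 calls, but 2760 without the length trend, 2696 without length and GC trends and 2919 without WT replicate 2. PB-CCN1 against PB-Ctrl gave 183, but 298 unfiltered, 537 with each experiment on its own, 34 and 33 by limma, and 56 to 283 without single libraries. PB-GPC4 against PB-Ctrl gave 978, but 2006 on its own, 341 and 319 by limma, and 284 to 1475 without single libraries. PB-CCN1 against PB-GPC4 gave 331, but 589 unfiltered, 990 on its own, 76 and 82 by limma, and 77 to 596 without single libraries. The difference of the Ccn1 effects gave 3605, but 2080 and 2052 without the trends. Trp73, Lhx5, Lhx1, Calb2 and Ndnf rest on few counts.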
